A study of Mus musculus with 21 samples.

Results

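Expression of 8 mouse genes linked to quiescence and restrained growth was followed in primary B cell precursors that carried an empty vector (EV) or expressed the oncogene BCR-ABL1 or C-MYC. The genes were chosen by symbol, with earlier results of these data known. They are the Kruppel-like factor genes Klf2, Klf3, Klf4, Klf6 and Klf13, the antiproliferative genes Btg2 and Tob1, and Pik3ip1. All 8 were found among the 24421 genes of the count and FPKM tables, and all 8 had enough counts to be tested. In C-MYC cells 7 of the 8 were lower than in EV cells, where 24.5% of all tested genes were lower. In BCR-ABL1 cells 2 of the 8 were lower, where 12.0% of tested genes were lower. Over 14 alternative settings the number of members that passed ran from 4 to 7 in C-MYC and from 1 to 6 in BCR-ABL1. No member was higher than in EV in either condition.

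The cells came from bone marrow of 53BP1-/- C57BL/6 mice, so that the control cells also lacked the DNA repair factor 53BP1. Whole marrow, depleted of erythrocytes, was enriched for B cell precursors by culture with 10 ng/ml IL-7, a cytokine on which B cell precursors depend, and received retrovirus on days 2 and 3 of culture. The MIGR1 vector was empty in EV, or encoded human BCR-ABL1p210, the fusion kinase of chronic myeloid leukemia and of a class of acute lymphoblastic leukemia, or mouse C-MYC, a transcription factor that drives growth and proliferation. Cells were harvested 7 to 9 days after transduction and depleted of dead cells, and poly(A) RNA was sequenced in duplicate experiments, which gave 6 libraries of 20687092 to 24095955 counts. No sort for vector-carrying cells is described, so each library averages over every cell in its culture, and the age of the mice is not given in the sources used here. Myc, the gene delivered in C-MYC, had 37920 and 27450 counts there against 3869 and 3277 in EV and 7239 and 8381 in BCR-ABL1. Trp53bp1, the gene of 53BP1, had 342 to 723 counts over the 6 libraries, so gene-level counts do not show the deletion that all of them carry by label.

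Markers of other cell types moved with the conditions and are set out first. The summed level of 10 B cell precursor markers, in counts per 1000000 counts after TMM scaling (CPM), lay between 8389 and 9374 in EV, 7665 and 8608 with BCR-ABL1, and 5677 and 7177 with C-MYC. Of these 10 markers, 8 were lower in C-MYC than in EV and 7 were higher in BCR-ABL1 than in C-MYC, and 1 was lower in BCR-ABL1 than in EV. The 10 myeloid markers summed to 1237 to 1300.4 CPM in EV, 156 to 178 with BCR-ABL1 and 239 to 402 with C-MYC, and BCR-ABL1 had 10 of 10 and C-MYC 9 of 10 below EV. The 8 T and NK cell markers summed to 151 to 207 CPM in EV, 39.3 to 45.4 with BCR-ABL1 and 52.8 to 84.3 with C-MYC, and BCR-ABL1 had 8 of 8 and C-MYC 7 of 8 below EV. The 8 endothelial and stromal markers summed to 249.6 to 263 CPM in EV, 62.3 to 72.3 with BCR-ABL1 and 27.9 to 32.4 with C-MYC. Of these 8 markers 7 were tested, and BCR-ABL1 had 5 and C-MYC 6 of them below EV. Most of the sum in EV came from Pecam1 (146 and 107 CPM), Col1a1 (52.0 and 76.1) and Col1a2 (47.6 and 74.9). The endothelial genes Cdh5, Kdr and Tek had at most 15 counts in either EV library. The erythroid markers Hba-a1, Hbb-bs and Hbb-bt had 0 counts in all 6 libraries. Summed marker RNA of the myeloid, T and NK, and endothelial and stromal lists was thus higher in EV than in either oncogene condition, and several members are also transcribed in myeloid, T or endothelial cells. In such bulk samples fewer cells of a type and less RNA per cell cannot be told apart, and the part of other cells in each difference from EV was not tested. The sums of the B cell precursor, myeloid, T and NK, and endothelial and stromal lists did not overlap between the oncogene conditions either. BCR-ABL1 stood above C-MYC in the B cell precursor and the endothelial and stromal sums, and below it in the myeloid and the T and NK sums. The part of other cells in the differences between the oncogene conditions was not tested. The myeloid sums of both lay far below EV.

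**Figure D1:**
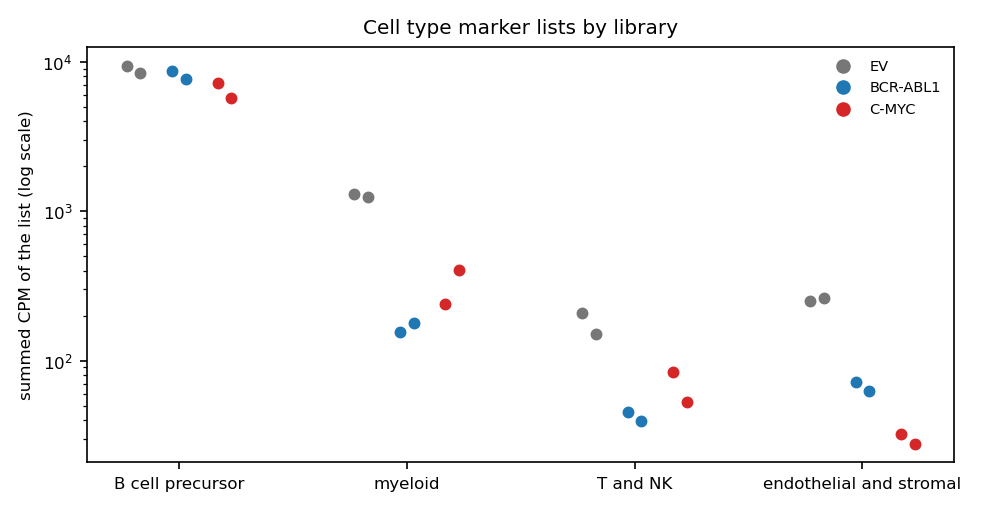
Summed CPM of each cell type marker list (log axis) in the 6 libraries, with 2 points per condition. The myeloid, T and NK, and endothelial and stromal lists lay highest in both EV libraries, while the B cell precursor list spanned 5677 to 9374 CPM over all libraries.

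Kruppel-like factors are zinc-finger proteins that bind GC-rich and CACCC sequences in promoters, and most act as activators or repressors according to the partners they recruit. In lymphocytes KLF2 keeps cells quiescent and switches on genes of migration, KLF3 recruits the co-repressor CtBP, KLF4 restrains proliferation and is abundant in monocytes, KLF6 is an early-response factor, and KLF13 is a widely expressed factor of the branch that recruits the co-repressor Sin3a. BTG2 and TOB1 belong to the BTG/TOB family, whose members bind the CCR4-NOT deadenylase and thereby shorten the poly(A) tails of messenger RNA, and Btg2 is also a target of p53. PIK3IP1 is a membrane protein that binds and restrains class I PI3-kinase.

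The stretches upstream of 3 members are shown because C-MYC binds the letters CACGTG (the E-box) and Sp and KLF proteins bind GGGCGG or its reverse complement. Klf4 and Klf6 hold a CACGTG and Btg2 does not, and all 3 were lower in C-MYC. The letters run 5′ to 3′ along the gene's strand from base -250 to base -11 before the annotated start, from RefSeq on GRCm38.p6, and capitals mark CACGTG and GGGCGG on either strand. The windows are chr4:55532486-55532725 on the minus strand for Klf4, chr13:5861239-5861478 on the plus strand for Klf6, and chr1:134079166-134079405 on the minus strand for Btg2.
Klf4: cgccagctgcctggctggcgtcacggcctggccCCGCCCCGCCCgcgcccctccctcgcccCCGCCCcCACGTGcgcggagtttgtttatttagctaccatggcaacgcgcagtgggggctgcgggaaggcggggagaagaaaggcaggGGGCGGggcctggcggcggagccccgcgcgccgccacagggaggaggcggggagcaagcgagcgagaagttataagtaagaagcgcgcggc
Klf6: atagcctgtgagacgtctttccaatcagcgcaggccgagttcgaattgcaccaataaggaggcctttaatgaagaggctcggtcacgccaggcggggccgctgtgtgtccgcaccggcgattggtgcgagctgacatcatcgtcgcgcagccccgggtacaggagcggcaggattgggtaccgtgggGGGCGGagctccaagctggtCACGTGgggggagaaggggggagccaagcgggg
Btg2: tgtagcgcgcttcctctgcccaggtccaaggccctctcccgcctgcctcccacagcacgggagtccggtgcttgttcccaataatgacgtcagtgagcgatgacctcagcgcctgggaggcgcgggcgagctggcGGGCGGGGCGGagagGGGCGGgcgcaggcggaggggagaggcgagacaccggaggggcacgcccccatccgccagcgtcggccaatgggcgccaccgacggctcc

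The CACGTG began at base -182 in Klf4 and at base -43 in Klf6, and no other member had one in its 300 bases around the start (250 before and 50 after). That made 2 of 8 members, against 7.24% of 27025 RefSeq promoters of this length and 10.3% of the 9714 that belong to tested genes. GGGCGG stood in 7 of 8 members, all but Pik3ip1, against 63.9% of the promoters of tested genes. CACCC stood in 5 of 8 against 62.6%. Neither TGTTTAC, the FoxO site, nor TTCNNNGAA, the STAT site, stood in any of the 8 windows, and 2.52% and 7.04% of the promoters of tested genes held them. Both strands were searched for each motif, and a match is a string of letters and not a measured binding site. Median GC content was 72% over the members' windows and 60.7% over those of tested genes.

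By FPKM, which scales for transcript length, the members spanned a wide range of levels. In EV the order of the mean FPKM was Klf13 (101), Klf6 (85.5), Btg2 (42.2), Klf2 (26.6), Pik3ip1 (19.5), Klf4 (13.1), Klf3 (6.79) and Tob1 (5.64). The libraries of neighbours in this order overlapped for Klf13 and Klf6, for Klf2 and Pik3ip1, and for Klf3 and Tob1. Within each EV library Klf2 still stood above Pik3ip1 (30.4 against 24.9 and 22.8 against 14.1 FPKM). The order of Klf13 and Klf6, and that of Klf3 and Tob1, turned between the replicates. In C-MYC the order was Klf13 (55.97), Klf6 (34.1), Btg2 (12.9), Klf2 (9.22), Tob1 (5.02), Klf4 (4.71), Pik3ip1 (3.82) and Klf3 (1.87), and only the libraries of Btg2 and Klf2 overlapped between neighbours. Klf13, Klf6, Btg2 and Klf2 were the 4 highest members in EV and C-MYC both by FPKM and by CPM per kilobase of annotated exon, but the order among them depended on that choice. In BCR-ABL1, Klf6 (68.5) and Klf13 (67.5) overlapped at the top, Btg2 (23.1), Pik3ip1 (17.2) and Klf2 (11.8) followed, and Klf3 (4.19), Klf4 (4.17) and Tob1 (3.64) were lowest.

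**Figure D2:**
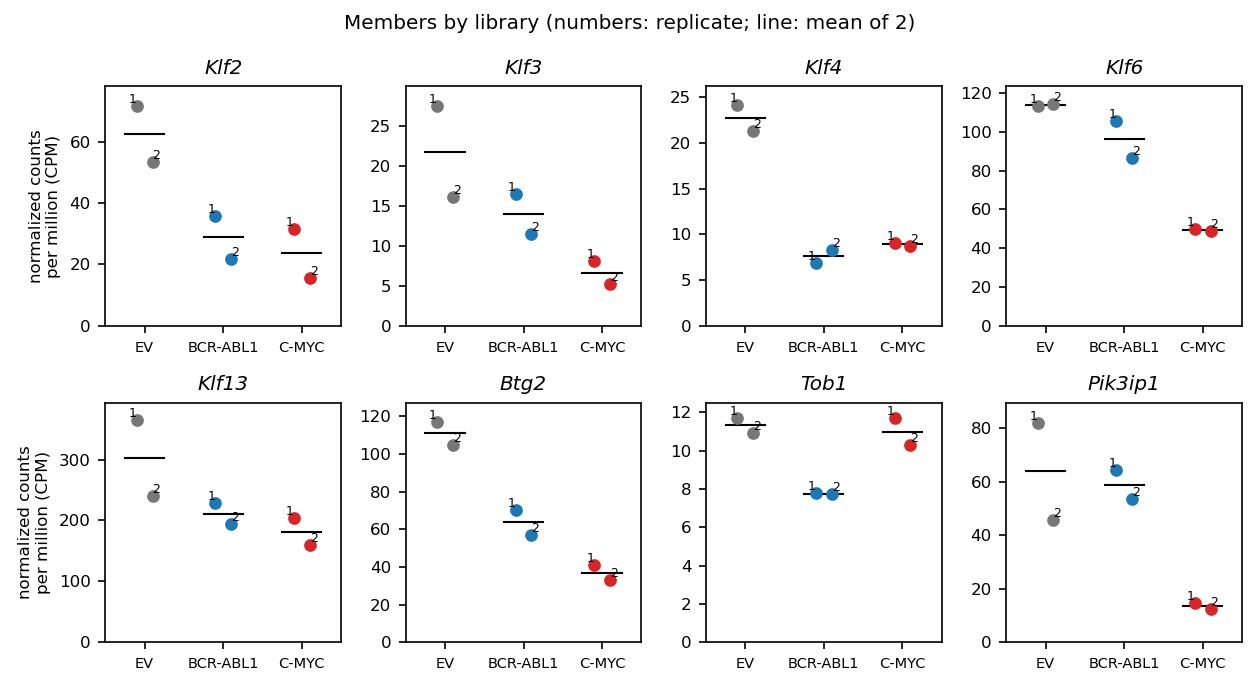
CPM of each member in the 6 libraries, 1 panel per gene with its own axis from 0. Points are libraries with their replicate number and lines are means of 2 libraries. All members but Tob1 lay lower in both C-MYC libraries than in both EV libraries, where 39.1% of tested genes did so, and Pik3ip1 lay at 12.4 and 14.7 in C-MYC against 45.8 and above in the other 4.

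Each oncogene condition was first compared with EV. In C-MYC against EV, 7 of 8 members were lower and none was higher by the edgeR quasi-likelihood test (Benjamini-Hochberg adjusted p under 0.05), where 24.5% of the 12786 tested genes were lower and 18.6% higher. The member that did not pass was Tob1. The median log2 fold change of the 8 was -1.38, and that of all tested genes -0.08. In BCR-ABL1 against EV, Klf4 and Btg2 were lower, 2 of 8, where 12.0% of tested genes were lower and 5.08% higher. There the median was -0.59 over the members and 0.00 over all tested genes, and 6 of 8 members had both BCR-ABL1 libraries below both EV libraries, as 29.7% of tested genes did. The count of members called here moved between 1 and 6 over the 14 alternative settings. In C-MYC 7 of 8 lay below EV in this way, against 39.1% of tested genes. Comparing the oncogenes directly, Klf6, Btg2 and Pik3ip1 were higher in BCR-ABL1 than in C-MYC, 3 of 8, where 11.9% of tested genes were higher and 11.5% lower, and no member was lower. All of these comparisons come from 1 model and share libraries, and the change between the oncogenes is the difference of the changes against EV. Their results are thus not independent of each other. The shares of all tested genes given here apply to the counts of the marker and gene lists as well.

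**Figure D3:**
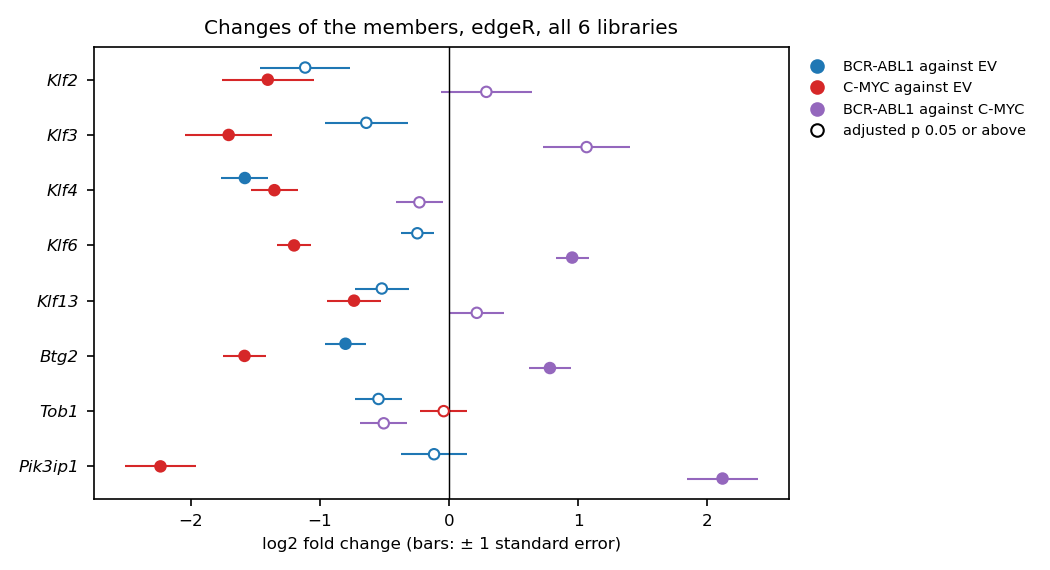
Log2 fold change of each member in the 3 comparisons, with bars of 1 standard error from edgeR's fit of all 6 libraries. Filled points have an adjusted p below 0.05. Pik3ip1 stood at -2.23 in C-MYC against EV and at -0.12 in BCR-ABL1 against EV, while Klf4 stood at -1.35 and -1.58.

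Klf4 fell in both oncogene conditions. Klf4 (chr4:55527143-55532466, minus strand, 5 exon blocks, positions of all genes from GENCODE on GRCm38) had 24.1 and 21.4 CPM in EV, 6.87 and 8.31 with BCR-ABL1, and 9.10 and 8.71 with C-MYC. Both EV libraries thus stood more than 10 CPM above every other library. Klf4 was 2.99-fold lower in BCR-ABL1 than in EV (log2 fold change -1.58 ± 0.18 SE, adjusted p = 0.00170) and 2.55-fold lower in C-MYC (-1.35 ± 0.18, adjusted p = 0.00113). The 2 oncogene conditions differed by -0.23 ± 0.18 on the log2 scale, which did not pass the test (adjusted p = 0.409). Klf4 is a factor of monocytes, and in the myeloid marker sums given above both EV libraries also stood far above the other 4. The T and NK sums and the endothelial and stromal sums were highest in both EV libraries too. The part of other cells in the change of Klf4 was not tested.

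Klf2 was highest in EV as well, with a wide spread within each condition. Klf2 (chr8:72319033-72321656, plus strand, 3 exon blocks) had 71.6 and 53.3 CPM in EV, 35.9 and 21.8 with BCR-ABL1, and 31.6 and 15.6 with C-MYC. Both EV libraries lay above the other 4, and the libraries of the oncogene conditions overlapped. In C-MYC Klf2 was 2.64-fold lower than in EV (log2 fold change -1.40 ± 0.35, adjusted p = 0.0150). Leaving out C-MYC replicate 2, the lowest library, ended that call (-0.98, adjusted p = 0.0770). In BCR-ABL1 the difference from EV was -1.11 ± 0.35 and missed the threshold (adjusted p = 0.0688), and it passed under 7 of 14 alternative settings, with adjusted p between 0.00135 and 0.344 over all of them. The oncogene conditions differed by 0.29 ± 0.35 (adjusted p = 0.593).

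Klf3 and Klf6 were lower in C-MYC than in EV by 3.26-fold and 2.30-fold. Klf3 (chr5:64803388-64832901, plus strand, 8 exon blocks) had 27.4 and 16.1 CPM in EV, 16.5 and 11.5 with BCR-ABL1, and 8.14 and 5.21 with C-MYC. The C-MYC libraries stood below the other 4, and those of EV and BCR-ABL1 overlapped. Klf3 was lower in C-MYC than in EV (log2 fold change -1.71 ± 0.33, adjusted p = 0.00526), while the differences of BCR-ABL1 from EV (-0.64 ± 0.32, adjusted p = 0.222) and from C-MYC (1.07 ± 0.33, adjusted p = 0.0546) missed the threshold. The first of these passed under 2 of 14 alternatives and the second under 6. An antisense transcript shares 404 exon bases with Klf3 and has no row in the count table, and since the handling of strand is not given in the sources used here, its reads cannot be told apart from those of Klf3.

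Klf6 (chr13:5861482-5870394, plus strand, 5 exon blocks) was lowest in C-MYC, with close replicates there and in EV. It had 113 and 114 CPM in EV, 106 and 86.3 with BCR-ABL1, and 50.01 and 49.1 with C-MYC. Both C-MYC libraries lay far below the other 4, and those of BCR-ABL1 a little below those of EV. Klf6 was lower in C-MYC than in EV (log2 fold change -1.20 ± 0.13, adjusted p = 0.000524) and higher in BCR-ABL1 than in C-MYC (0.95 ± 0.13, adjusted p = 0.00309). These calls held under all 14 alternatives. The difference between BCR-ABL1 and EV was -0.24 ± 0.13 (adjusted p = 0.235).

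Klf13 (chr7:63886351-63938915, minus strand, 4 exon blocks) had the highest CPM of the members and the smallest change among those called. Its values were 365 and 240.0 CPM in EV, 228 and 194 with BCR-ABL1, and 204 and 159 with C-MYC. The EV libraries were highest, but differed from each other by more than EV replicate 2 differed from BCR-ABL1 replicate 1. In C-MYC Klf13 was 1.66-fold lower than in EV (log2 fold change -0.74 ± 0.21, adjusted p = 0.0241). Without EV replicate 1 the value was -0.40, and without C-MYC replicate 2 it was -0.56, and the call was lost in both (adjusted p = 0.0826 and 0.148). BCR-ABL1 differed from EV by -0.52 ± 0.21 (adjusted p = 0.135) and from C-MYC by 0.22 ± 0.21 (adjusted p = 0.497), and the first of these passed under 2 of 14 alternatives.

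Btg2 was the member that passed the test in all 3 comparisons. Btg2 (chr1:134075170-134079120, minus strand, 2 exon blocks) had 117 and 105 CPM in EV, 70.3 and 57.1 with BCR-ABL1, and 41.1 and 33.0 with C-MYC. The 3 conditions did not overlap, with EV highest and C-MYC lowest. Btg2 was 1.74-fold lower in BCR-ABL1 than in EV (log2 fold change -0.80 ± 0.16, adjusted p = 0.0133) and 3.00-fold lower in C-MYC (-1.58 ± 0.16, adjusted p = 0.000475). Between the oncogenes it was 1.72-fold higher in BCR-ABL1 (0.78 ± 0.16, adjusted p = 0.0128). The call in BCR-ABL1 against EV was lost without BCR-ABL1 replicate 2 (-0.66), and that between the oncogenes without BCR-ABL1 replicate 1 or C-MYC replicate 2 (0.63 in both).

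Tob1, the other antiproliferative member, did not pass in any of the 3 comparisons. Tob1 (chr11:94211454-94215495, plus strand, 2 exon blocks) had 11.7 and 10.95 CPM in EV, 7.77 and 7.73 with BCR-ABL1, and 11.7 and 10.3 with C-MYC. The BCR-ABL1 libraries stood below the other 4, and those of EV and C-MYC overlapped. The difference between C-MYC and EV was -0.04 ± 0.18 on the log2 scale (adjusted p = 0.876), with a sign that changed under other scaling. BCR-ABL1 differed from EV by -0.55 ± 0.18 (adjusted p = 0.0821) and from C-MYC by -0.50 ± 0.18 (adjusted p = 0.0840), and each of these passed under 3 of 14 alternatives, at adjusted p of 0.0440 or above. With 164 to 262 counts a library, Tob1 had the lowest EV count of the members.

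Pik3ip1 showed the largest change of the members and the largest difference between the oncogenes. Pik3ip1 (chr11:3330401-3342971, plus strand, 6 exon blocks) had 81.8 and 45.8 CPM in EV, 64.4 and 53.3 with BCR-ABL1, and 14.7 and 12.4 with C-MYC. Both BCR-ABL1 libraries fell between the EV libraries, and both C-MYC libraries stood far below the other 4. In C-MYC Pik3ip1 was 4.70-fold lower than in EV (log2 fold change -2.23 ± 0.27, adjusted p = 0.000788), and in BCR-ABL1 it was 4.34-fold higher than in C-MYC (2.12 ± 0.27, adjusted p = 0.00261). BCR-ABL1 differed from EV by -0.12 ± 0.26 (adjusted p = 0.807), and that sign turned without EV replicate 1 (0.37) or BCR-ABL1 replicate 2 (0.01). An antisense transcript without a row in the table shares 91 exon bases with Pik3ip1.

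The rest of the Kruppel-like family was called in both directions in C-MYC, at shares near those of all tested genes. Of the 12 other Kruppel-like genes 8 had enough counts to be tested. In C-MYC 2 of the 8 were lower and 2 higher than in EV, where 24.5% of tested genes were lower and 18.6% higher. The median log2 fold change of the 8 was -0.01. Klf16 had 29.6 and 21.5 CPM in EV, 29.2 and 32.3 with BCR-ABL1 and 71.4 and 56.3 with C-MYC, and was the member of the family that rose most in C-MYC (1.32 ± 0.19, adjusted p = 0.00158). Klf9, a gene that glucocorticoid and thyroid hormones induce, was higher than in EV in both BCR-ABL1 (0.63 ± 0.17, adjusted p = 0.0419) and C-MYC (0.62 ± 0.17, adjusted p = 0.0204). Klf12 was lower in C-MYC (-0.85 ± 0.29, adjusted p = 0.0459). Klf5 was lower in both but had at most 17 counts in any library. Klf7, Klf8, Klf10 and Klf11 passed no test, and Klf1, Klf14, Klf15 and Klf17 had too few counts. The related zinc-finger factors Sp1, Sp2, Sp3 and Sp4 passed no test either, with Sp1 between 183 and 212 CPM in all 6 libraries.

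Summed over all 17 Kruppel-like genes, FPKM was 307 and 242 in the EV libraries, 219 and 191 with BCR-ABL1, and 176 and 155 with C-MYC. The 5 members made up 84.9% of that sum in EV, 76.2% with BCR-ABL1 and 63.9% with C-MYC. In C-MYC Klf9 stood at 27.1 and 26.4 FPKM and Klf16 at 17.8 and 14.6, both above Klf2 at 12.2 and 6.25. By CPM per kilobase of annotated exon Klf16 (23.9) still stood above Klf2 (12.8), but Klf9 (12.0) did not.

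**Figure D4:**
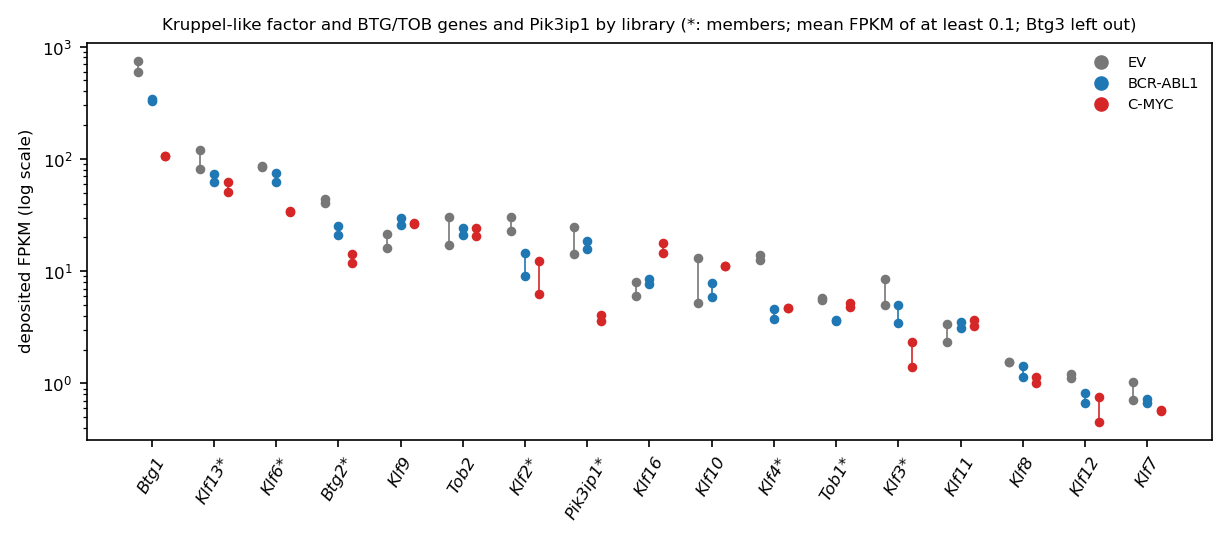
Deposited FPKM of Kruppel-like, BTG/TOB and Pik3ip1 genes in the 6 libraries (log axis), ordered by mean, with members starred. Lines join the 2 libraries of a condition, and Btg3 is left out because its FPKM and counts do not match. The FPKM of Btg1 is 4.13 times what its counts per kilobase give relative to the median gene. Btg1, Klf6, Btg2 and Pik3ip1 lay lowest in C-MYC, while Klf16 lay highest there.

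Within the BTG/TOB family, Btg1 also passed the test in all 3 comparisons. Btg1, an antiproliferative gene often deleted in B cell leukemia, had 604 and 468 CPM in EV, 288 and 272 with BCR-ABL1 and 93.8 and 89.5 with C-MYC. The 3 conditions did not overlap. Btg1 was lower in BCR-ABL1 (-0.94 ± 0.13, adjusted p = 0.00372) and in C-MYC (-2.55 ± 0.14, adjusted p = 0.000156) than in EV, and higher in BCR-ABL1 than in C-MYC (1.61 ± 0.14, adjusted p = 0.000619). Tob2 had 62.9 to 113 CPM and Btg3 under 1 CPM, and neither passed a test. Of 11 subunits of the CCR4-NOT deadenylase that the family binds, none passed in BCR-ABL1 against EV. In C-MYC 2 of the 11 were higher than in EV, near the 18.6% of all tested genes that were higher. These were the catalytic subunit Cnot7 (0.43 ± 0.10, adjusted p = 0.0126) and Cnot10 (0.38 ± 0.11, adjusted p = 0.0265). Of 6 co-repressors of Kruppel-like factors, Ctbp2 was lower in BCR-ABL1 (-2.06 ± 0.46, adjusted p = 0.0207), with 5.16 CPM or less in every library. In C-MYC Sin3b was lower (-0.36) and Hdac2 higher (0.57), where 24.5% of tested genes were lower and 18.6% higher.

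RNA of several subunits of class I PI3-kinase, the enzyme that Pik3ip1 restrains, was lower in C-MYC. Of 9 subunits 6 were lower and 1 higher in C-MYC than in EV, where 24.5% of tested genes were lower and 18.6% higher. In BCR-ABL1 2 of the 9 were lower, where 12.0% of tested genes were lower. Pik3cd, the catalytic subunit most used in lymphocytes, had 963 and 1072 CPM in EV, 1279 and 1074 with BCR-ABL1 and 587 and 528 with C-MYC (C-MYC against EV -0.87 ± 0.12, adjusted p = 0.00130). The regulatory subunit Pik3r6 was lower in C-MYC by 1.60 on the log2 scale (adjusted p = 0.00219). Of 7 phosphatases that oppose PI3-kinase or AKT, 6 were lower in C-MYC and 3 in BCR-ABL1, and 4 were higher in BCR-ABL1 than in C-MYC. Inpp4b had 38.8 and 37.8 CPM in EV, 24.0 and 26.4 with BCR-ABL1, and 9.19 and 12.1 with C-MYC, so that the 3 conditions did not overlap. In C-MYC against EV the list medians were -0.64 for the subunits and -0.82 for the phosphatases. The 10 B cell precursor markers, 8 of them lower, had a similar median of -0.79, so falls of this size were not particular to these lists. The subunit Pik3r2 was higher in C-MYC than in EV (0.50), and the subunits Pik3ca and Pik3cb and the phosphatase Phlpp2 (0.35) were not called in that comparison. The subunits lower in BCR-ABL1 than in EV were Pik3cb (-1.86 ± 0.43, adjusted p = 0.0230), at only 5.70 and 4.97 CPM in EV, and Pik3r1 (-0.50 ± 0.10, adjusted p = 0.0147).

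FoxO factors are switched off by PI3-kinase signalling, and with KLF2 they activate genes of lymphocyte homing and quiescence. Foxo1 had 444 and 286 CPM in EV, 430 and 321 with BCR-ABL1 and 206 and 170 with C-MYC, and was lower in C-MYC (-0.96 ± 0.23, adjusted p = 0.0115). Foxo4 was lower in C-MYC by 0.55 on the log2 scale (adjusted p = 0.0358), Foxo3 was not called, and none of the 3 passed in BCR-ABL1. Of 10 target genes of KLF2 or FoxO1, 10 were lower in C-MYC and 4 in BCR-ABL1. The median log2 fold changes of the 10 were -1.41 and -0.41. S1pr1, the receptor for exit from tissues and a target of KLF2, had 104 and 67.3 CPM in EV, 54.1 and 37.3 with BCR-ABL1 and 16.7 and 15.9 with C-MYC. It was lower in both, and higher in BCR-ABL1 than in C-MYC (1.49 ± 0.25, adjusted p = 0.00628). Itgb7 fell from 53.6 and 49.4 CPM in EV to at most 7.14 in the other 4 libraries. Il7r, the receptor for the IL-7 in the medium, was lower under both BCR-ABL1 (-1.82) and C-MYC (-1.61). Cdkn1b, Ccng2, Sesn1, Txnip, Ccr7 and Irs2 were lower in C-MYC than in EV, and of these Cdkn1b, Ccng2, Sesn1 and Irs2 were also lower in C-MYC than in BCR-ABL1. Itgb7, an integrin of lymphocyte homing, is also expressed by myeloid and T cells, whose marker sums were also highest in EV. The part of such cells in the change of Itgb7 was not tested.

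**Figure D5:**
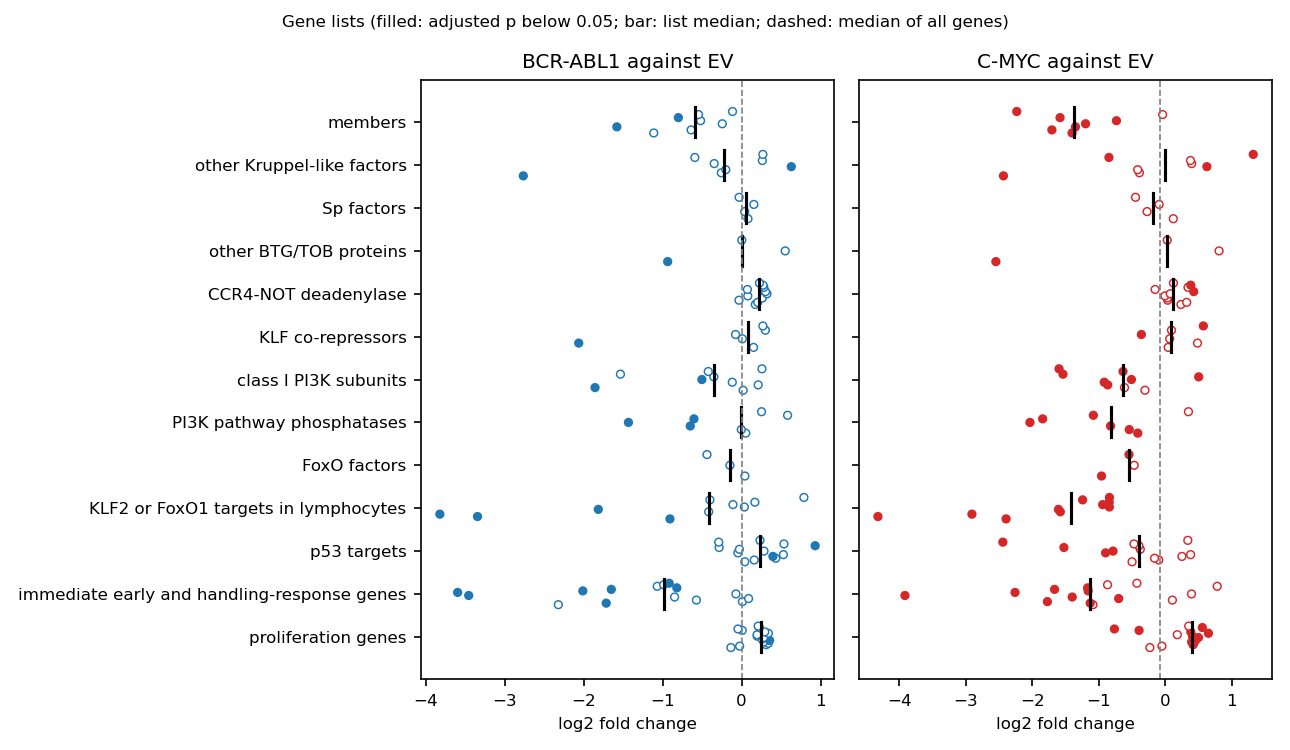
Log2 fold changes of the members and of each gene list against EV, BCR-ABL1 at left and C-MYC at right. Each circle is a tested gene, filled where the adjusted p is below 0.05, bars are list medians and dashed lines the median of all genes. In C-MYC the members (-1.38) and the targets of KLF2 or FoxO1 (-1.41) lay lowest, and the proliferation genes (0.40) highest.

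Btg2 is a target of p53, so 13 other targets of p53 were counted as well. Of these 13 genes Bax (0.40) and Zmat3 (0.93) were higher in BCR-ABL1 than in EV, where 5.08% of tested genes were higher. In C-MYC Trp53inp1 (-1.52), Pmaip1 (-0.90), Phlda3 (-0.79) and Perp (-2.44) were lower, 4 of 13, where 24.5% of tested genes were lower. Cdkn1a, which encodes the cell cycle inhibitor p21, had 163 and 174 CPM in EV, 195 and 151 with BCR-ABL1, and 139 and 99.0 with C-MYC and was not called. Between the oncogenes 6 of the 13 were higher in BCR-ABL1, where 11.9% of tested genes were higher.

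Klf2, Klf4, Klf6 and Btg2 also respond within minutes to growth signals and cell handling, so genes of that kind were counted. Of 15 immediate early genes BCR-ABL1 had 7 and C-MYC 9 below EV, with medians of -0.99 and -1.13. EV replicates differed widely here, with Fos at 5.70 and 29.6 CPM and Dusp1 at 15.1 and 49.6, both higher in EV replicate 2, while Junb (109 and 85.7) and Ier2 (47.8 and 41.0) were higher in EV replicate 1. Klf2, Klf4 and Btg2 were higher in EV replicate 1, and Klf6 was nearly equal in both. The part of handling in the members' changes was not tested.

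Most proliferation genes counted were higher in C-MYC. Of 16 such genes 10 were higher and 2 lower in C-MYC than in EV, and 1, Mcm4, was higher in BCR-ABL1. The 10 rises lay between 0.38 for Cdk1 and 0.65 for Ccnb1 on the log2 scale. Those lower in C-MYC were the D-type cyclins Ccnd2 (-0.39) and Ccnd3 (-0.77). Mki67 and Top2a, both at over 1000 CPM in every library, passed no test.

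For each member, the genes with the nearest pattern over the 6 libraries were found among the 10623 tested genes that averaged 50 counts or more, by the distance between centred log2 CPM values. Among the nearest to Klf2 was Lipe (distance 0.50), and nearest to Klf3 were Casz1 (0.27) and Setbp1 (0.31), and to Klf4 Pdlim7 (0.28) and Rhoc (0.33). Klf6 had Inpp5k (0.14) and A630001G21Rik (0.16), and Klf13 had Nr1h2 (0.13) and the chemokine receptor gene Cxcr4 (0.15). Cxcr4 had 358 and 255 CPM in EV, 244 and 209 with BCR-ABL1 and 199 and 161 with C-MYC, close to Klf13 in level as well as in pattern on the scale of CPM. Nearest to Btg2 were Unc93b1 (0.22) and Ttc28 (0.25), to Tob1 Them6 (0.09) and Micall2 (0.15), and to Pik3ip1 the lymphocyte receptor gene Gpr18 (0.18) and the tetraspanin gene Cd82 (0.21). No member was among the nearest genes of another, and the closest rank of this kind was Btg2 in place 22 for Klf2. These likenesses are descriptions over 6 libraries that share conditions and scaling.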

How the data were processed

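RNA-seq of 6 libraries, 2 each of EV, BCR-ABL1 and C-MYC, was analysed. ChIP-seq samples of the series were not used here. The authors aligned poly(A) reads to GRCm38/mm10 with STAR 2.5.0 and deposited raw whole-number counts by gene symbol. FPKM values, also deposited by gene symbol, were made by the authors in StringTie 1.3.0. The counting program and its use of strand are not given in the sources used here. Both tables hold 0 columns of other samples.

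From the counts, 12786 of 24421 genes passed filterByExpr, library sizes were scaled by TMM, and all 6 libraries entered 1 model in edgeR 4.0.16 (R 4.3.3) without covariates. The quasi-likelihood test was called at a Benjamini-Hochberg adjusted p below 0.05 over all tested genes. With 3 residual degrees of freedom and a biological coefficient of variation of 0.151, replicate spread limits precision more than depth (20687092 to 24095955 counts per library, a count of 0 allowing up to 3). On simulated data the test found 78% of 2-fold and 98% of 4-fold changes among 200 changed genes in C-MYC against EV, and called 15 unchanged genes of 12561 tested. Only those 200 genes were changed there, whereas 43.1% of tested genes were called in C-MYC against EV in the data. The simulated rates therefore need not hold for these data. The replicates are duplicate experiments, and p-values measure the spread between them.

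Members, gene lists and the rule for nearest genes (mean of at least 50 counts, prior count 2) were chosen with earlier results of these data known. Named genes are the members, listed genes and the 2 nearest genes of each member. A few genes that this rule names are not reported here. Of 166 listed symbols 1 had no row. Positions come from the GENCODE M21 annotation, upstream sequences from RefSeq. Alternatives covered DESeq2 1.42.0, its size factors, no filter, limma 3.58.1 on log2 FPKM, fewer libraries, a replicate block and each library left out.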

Additional observations from a re-analysis of the deposited data

How the results depend on the processing

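With 14 alternatives for each of 8 members and 3 comparisons, 292 of 336 values kept their direction and side of the threshold, 23 newly passed, 12 no longer passed and 9 changed sign. With limma on log2(FPKM + 1) and no filter, 1 member was called in BCR-ABL1 against EV, 4 in C-MYC against EV and 1 between the oncogenes, with 703, 3010 and 693 calls over all genes against 2180, 5515 and 2991 in the main model, while limma with a filter gave 1257 (pseudocount 1) and 1251 (0.1) calls in BCR-ABL1 against EV. With only the 4 libraries compared, 5 members and 4538 genes were called between the oncogenes. Leaving out 1 library at a time gave 1 to 5 members in BCR-ABL1 against EV (5 without EV replicate 2, 1 without BCR-ABL1 replicate 2), 5 to 7 in C-MYC against EV and 2 to 5 between the oncogenes (5 without either EV replicate). Over all genes these gave 665 to 2729, 3329 to 6077 and 618 to 4519 calls, the lowest without BCR-ABL1 replicate 2, C-MYC replicate 1 and BCR-ABL1 replicate 1. Higher genes made up 29.8% of calls in BCR-ABL1 against EV and 38.9% with DESeq2. No value that changed sign had passed the test. Tob1 in C-MYC against EV was 0.0035 with DESeq2's size factors, 0.013 with DESeq2 and 0.014 with only the 4 libraries, and -0.13 to 0.057 with 1 library left out. Klf2 between the oncogenes ranged from -0.13 to 0.88 and Pik3ip1 in BCR-ABL1 against EV from -0.47 to 0.37 with 1 library left out (0.37, adjusted p = 0.147, without EV replicate 1). The cause of these shifts was not tested. Ranked by CPM per kilobase of exon, EV kept 2 members, BCR-ABL1 1 and C-MYC 3 in their place by FPKM. With a replicate block, 6 members and 3224 genes were called in BCR-ABL1 against EV, where Klf2 (adjusted p = 0.00135), Klf3 (0.0197), Klf13 (0.0122) and Tob1 (0.0468) newly passed. The labels do not say what a replicate number shares, so the samples were not treated as paired, although the deviations of replicate 1 correlated between conditions across genes (0.27 for EV and BCR-ABL1, 0.24 for EV and C-MYC, 0.20 for both oncogenes, and 0.48, 0.34 and 0.39 among genes of at least 10 CPM), and 6 of 8 members were higher in replicate 1 in every condition, against 21.4% of tested genes.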
